A study of Mus musculus with 214 samples.

Results

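The genes of the cytosolic ribosome were followed through mouse liver after juvenile exposure to N-nitrosodimethylamine (NDMA), a DNA methylating agent that liver enzymes activate. Members were all rows whose symbol is Rpl or Rps followed by a digit, Rplp0 to Rplp2 or Rpsa, leaving out symbols with -ps and the Rps6k kinases. This gave 89 of 18647 genes in the WT table and 89 of 19540 genes in the Mgmt-/- table. All mice were RaDR+/+;GPT+/+ on a C57BL6 background, and the second genotype also lacked Mgmt, the enzyme that removes methyl groups from the O6 position of guanine. Litters were assigned at birth to intraperitoneal NDMA, at 3.5 mg/kg on postnatal day 8 and then 7 mg/kg on postnatal day 15 (10.5 mg/kg in total), or to saline at the same ages. Livers of both sexes were collected on Day1, Day2, Day5, Week10 or Month10 post-exposure. In WT, 26, 8, 8, 8 and 13 NDMA-exposed livers and 21, 8, 7, 8 and 10 saline livers had values at these times, in that order. In Mgmt-/-, the numbers were 12, 8, 8, 8 and 13 for NDMA and 12, 7, 8, 8 and 12 for saline. RNA was read by 3′ digital gene expression, which counts tags near the 3′ end of polyadenylated transcripts, and each library held 150038 to 4791649 reads in WT (median 1700411) and 713584 to 7740710 reads in Mgmt-/- (median 2306714). Values are the deposited normalized counts, the reads of a gene divided by the size factor of its library, and WT and Mgmt-/- were normalized separately, so levels are read within a genotype. Mgmt itself stood at 13.0 to 130 normalized counts in the WT libraries and at 0 to 9.67 in the Mgmt-/- libraries.

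Each cytosolic ribosome is built from ribosomal RNA and a large set of proteins, the Rpl proteins of the large subunit and the Rps proteins of the small subunit. Their messengers begin with a run of pyrimidines, the 5′ terminal oligopyrimidine (TOP) motif, through which mTORC1 and Larp1 control their translation together. Several ribosomal proteins also act away from the ribosome: Rpl5 and Rpl11 bind Mdm2 and so stabilize p53, and Rps27l is a direct p53 target. Most members have processed pseudogenes across the genome, and a few have a second functional copy, such as Rpl22l1, Rpl36al and Rps27l.

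The first 5 bases on either side of each RefSeq transcript start (GRCm38.p6) were searched on the transcribed strand for a C followed by at least 4 bases that are each C or T. Of 68 members with a start in the table, 31 (45.6%) had this run at 1 start or more, against 3469 of 15041 genes of the deposited tables (23.1%). Below are 30-base windows around the start of members whose values are followed in the results, in lower case with capitals for the match that begins nearest to the start, so that members with and without it can be compared. In Rpl14, Rpl22l1, Rps27 and Rps6 further pyrimidines stand just before the capitals, so that the whole run is longer there. Those with a run lie at chr9:66946081-66946110 on the plus strand (Rps27l), chr3:90213624-90213653 on the minus strand (Rps27), chr3:28805503-28805532 on the plus strand (Rpl22l1), chr9:120571512-120571541 on the plus strand (Rpl14) and chr4:86857343-86857372 on the minus strand (Rps6). Those without it lie on the minus strand at chr12:28635929-28635958 (Rps7), chr10:128549144-128549173 (Rpl41) and chrX:102189367-102189396 (Rps4x).
Rps27l: ccgccgCCTCTatcccggaagttgctgagg
Rps27: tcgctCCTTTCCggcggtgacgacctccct
Rpl22l1: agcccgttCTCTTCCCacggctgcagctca
Rpl14: tctctCTTCTCgctgagcgccgccaacatg
Rps6: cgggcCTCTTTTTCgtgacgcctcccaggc
Rps7: tccacccacctacttccgctgtccccacct
Rpl41: ggctcggaagtgacgacaccgagcacgcca
Rps4x: gcggagcaacccaggctccagcgcgcgcgc
None of the 3 RefSeq starts of Rps19 had the run. A window without it says only that these letters do not stand at that annotated start.

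Levels ranged over more than 4 orders of magnitude among the members. The mean over all libraries of a genotype ran from 0.0845 to 2232 normalized counts in WT and from 0.0528 to 3223 in Mgmt-/-. The highest was Rps14, a small subunit protein, at 2232 in WT and 3223 in Mgmt-/-. Rps27l followed in WT at 1969 (2041 in Mgmt-/-). These are tag counts per gene, since 3′ counting does not scale with transcript length. At the other end, Rpl10l, the testis copy of Rpl10, was at 0 in 106 WT and 90 Mgmt-/- libraries, and the muscle gene Rpl3l had means of 0.195 and 0.416. A mean of at least 5 normalized counts was reached by 72 members in WT and 73 in Mgmt-/-. Just inside it were Rps12 (5.11) in WT and Rpl7a (5.01) in Mgmt-/-, and just outside in WT was Rpl21 (4.68), all widely expressed ribosomal proteins. The selection also took in Rps19bp1, which is not a subunit (28.3 and 38.0), and 3 rows annotated as pseudogenes (Rpl32l, Rpl37rt and Rps4l).

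In several pairs of related genes the copy was counted more often than the parent gene. Rps27, a core subunit, had a mean of 3.41 normalized counts in WT and 4.44 in Mgmt-/-, far under Rps27l. Rpl36a (9.93 and 8.98) stood under Rpl36al (260 and 236), and Rpl10, a core large subunit protein, had a mean of 0.979 and 0.999. The last 400 bases of each annotated transcript, where 3′ tags fall, were aligned to the transcripts of all other genes (GENCODE vM21, at least 98% identity over at least 50 bases). Of 86 members with a protein-coding transcript, 27 had no such copy and a median WT mean of 223, and 59 had 1 or more and a median of 52.7. For the 19 members with copies over at least 90% of the stretch the median was 6.03, against 71.2 for the other 67 (6.05 and 85.6 in Mgmt-/-). Rpl10 and Rpl36a were covered to 100% and Rps27 to 98.8%, whereas Rps27l (chr9:66946086-66949516), Rps20, Rpl5, Rpl32 and Rps14 had 0%. Levels of members with copies are therefore uncertain, since reads that fit several genes may have been dropped or split. The relation was loose: members at 90% or more also included Rplp1 (804 normalized counts in WT), Rps26 (670), Rpl41 (491), Rps18 (484), Rps2 (130) and Rps19, which are all core subunits.

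**Figure D1:**
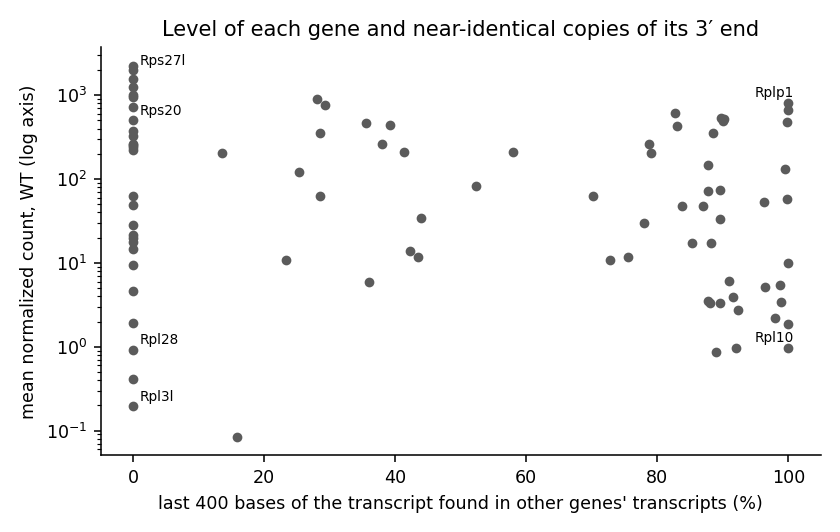
Mean normalized count in WT (log axis) of each member against the percentage of the last 400 bases of its transcript found in transcripts of other genes. Members at or above 90% have a median of 6.03, and several of them lie high, up to Rplp1 at 804.

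Some libraries stood apart. Counts of members that moved with them are given with and without them, as are named members where stated. For the other gene lists, counts are given without the kidney-like libraries, described next, at Day5 only. The profiles of 2 Mgmt-/- saline libraries of Day5, labelled liver, went against that label. The mean of their hepatocyte markers was 319 and 470 normalized counts, against 63372 to 85435 in the other 6 of the group, and the mean of their kidney markers was 4432 and 4983, against 0 to 1.80. They are called the kidney-like libraries. Fewer than 300000 reads were deposited for 4 WT NDMA-exposed livers, 1 each at Day2, Day5, Week10 and Month10. In 5 WT libraries Cdkn1a, the p53 target that encodes p21, stood on the other side of 50 normalized counts from the other livers of its treatment on Day1 to Day5. They were 3 saline livers (359 at Day1, 212 at Day2 and 109 at Day5) and 2 NDMA-exposed livers of Day1 (30.3 and 16.3), and the sex genes of the latter 2 also went against their labels. These 5 were noticed from a gene that responds to the treatment, after the data had been seen, and they kept their labels in all other results. In WT at Day2, Day5 and Week10 all males were in 1 library batch and all females in another, so the effect of sex there cannot be told apart from that of batch.

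Over the first 5 days the median share of all values held by the members was higher after NDMA, and in most comparisons the groups overlapped. In Mgmt-/- at Day2 the members summed to 1.02%, 1.08% and 1.20% of all values in saline livers (lowest, median and highest, n = 7) and to 1.38%, 1.53% and 1.70% after NDMA (n = 8). Every exposed liver was above every saline liver. On the deposited scale, the mean log2 level of the members had medians of 6.37 in these saline livers and 6.53 after NDMA. Hepatocyte markers, which are part of all values, fell in the same livers, as given below. At Day1 the Mgmt-/- share was 0.981%, 1.28% and 3.18% in saline and 1.49%, 2.21% and 5.13% after NDMA (n = 12 each), and the groups overlapped. The highest livers of both groups came from 1 of the 2 batches, where the median was 2.71% in saline and 4.84% after NDMA, against 1.22% and 1.64% in the other batch. Within the batch of high livers the groups overlapped (saline up to 3.18%, NDMA from 2.94%, n = 4 each). Within the other batch they did not (saline up to 1.45%, NDMA from 1.49%, n = 8 each). At Day5 the share was 0.987%, 1.12% and 2.26% in Mgmt-/- saline and 1.30%, 1.43% and 1.61% after NDMA. Both high saline values were those of the kidney-like libraries, and without them saline ended at 1.15% and the groups did not overlap. In WT the medians went from 1.26% to 1.60% at Day1, from 1.33% to 1.74% at Day2 and from 1.30% to 2.05% at Day5, with overlap at each time. By batch, the WT Day1 medians in saline and after NDMA were 1.28% and 1.48%, 1.21% and 1.58%, and 2.60% and 2.61%. The last batch, with n = 4 and n = 6, thus showed no difference, and it held the Day1 libraries with Cdkn1a against the label. Rps27l alone did not make up the difference in Mgmt-/- at Day2, since the medians without it were 1.03% and 1.38%.

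**Figure D2:**
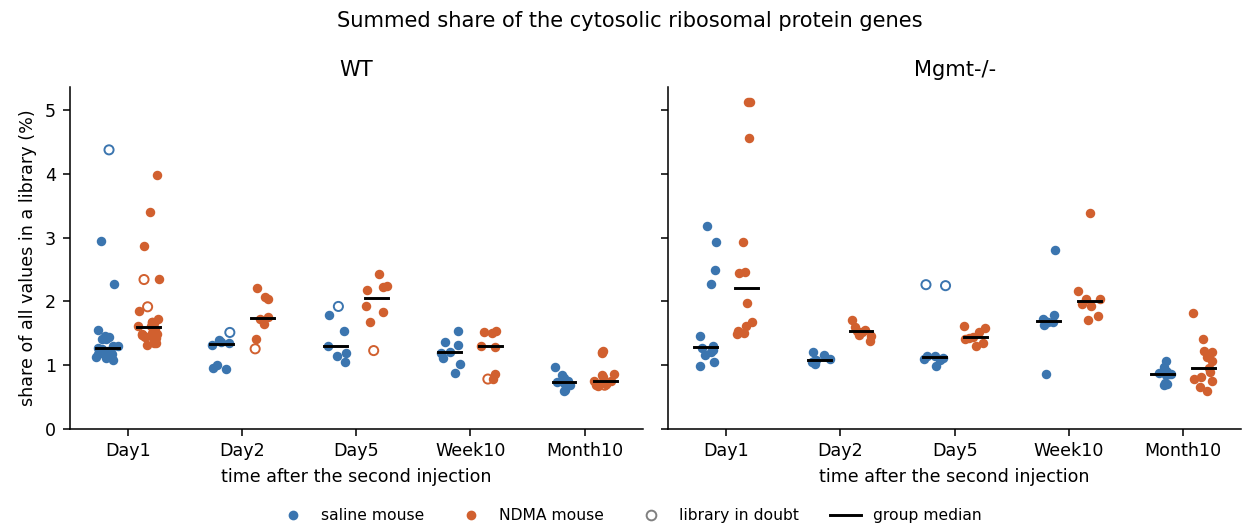
Share of all normalized counts (percent) held by the 89 members in each liver, by time, treatment and genotype; open circles are the kidney-like libraries and those with fewer than 300000 reads or with Cdkn1a against the label. At Day2 all Mgmt-/- NDMA livers (1.38% to 1.70%) lie above all saline livers (1.02% to 1.20%), and the Month10 livers lie low in both genotypes.

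Rps27l, the small subunit paralogue under p53 control, had the largest log2 fold change of the members past the test in Mgmt-/- at all 3 early times and in WT at Day1. In Mgmt-/- saline livers it stood at 1043, 1231 and 1389 normalized counts at Day2 (lowest, median and highest), and in NDMA-exposed livers at 2500, 2992 and 3283. The groups were far apart at this time and also at Day5, where saline ran from 873 to 1582 and NDMA from 2295 to 3023. At Day1 the ranges met, with 809, 1286 and 2445 in saline and 1989, 3461 and 8113 after NDMA. The log2 fold change was 1.37 at Day1 (SE 0.12, limma adjusted p = 6.48e-11), 1.25 at Day2 (SE 0.09, adjusted p = 6.12e-11) and 1.00 at Day5 (SE 0.12, adjusted p = 1.92e-05; 0.88 without the kidney-like libraries, adjusted p = 1.66e-07). These and all other fold changes are on the scale of log2(normalized count + 1) unless a count model is named, and they understate the changes of low genes.

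In WT, Rps27l went the same way with wider groups. At Day1 it stood at 724, 1078 and 4587 normalized counts in saline livers and at 1434, 2481 and 4403 after NDMA. The highest saline liver was the one with Cdkn1a against its label, and the next saline liver stood at 2326. The log2 fold change at Day1 was 0.96 (SE 0.12, limma adjusted p = 1.09e-08), and without the libraries in doubt by Cdkn1a it was 1.11 (adjusted p = 9.75e-15). Over 14 alternatives the Day1 value ran from 0.41 to 1.16, and the call was lost in 1 of them. At Day2 saline livers stood at 1047, 1329 and 3713 and exposed livers at 705, 3443 and 5134, and at Day5 they stood at 969, 1685 and 4144 and at 779, 3149 and 5710. In each case the highest saline liver was one with Cdkn1a against the label and the lowest exposed liver was the one with fewer than 300000 reads. With all libraries the differences did not pass the test, at 0.98 (SE 0.35, limma adjusted p = 0.104) on Day2 and 0.81 (SE 0.36, adjusted p = 0.243) on Day5. Without both kinds of library they were 1.47 (adjusted p = 2.11e-13) and 1.31 (adjusted p = 4.36e-07). Cdkn1a and Rps27l are both p53 targets, and the saline livers left out for Cdkn1a were those highest in Rps27l, so these last values depend on the choice of livers and are a description, not independent support. Leaving out the low-depth livers alone gave 1.32 (adjusted p = 1.92e-05) and 1.16 (adjusted p = 3.28e-04).

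**Figure D3:**
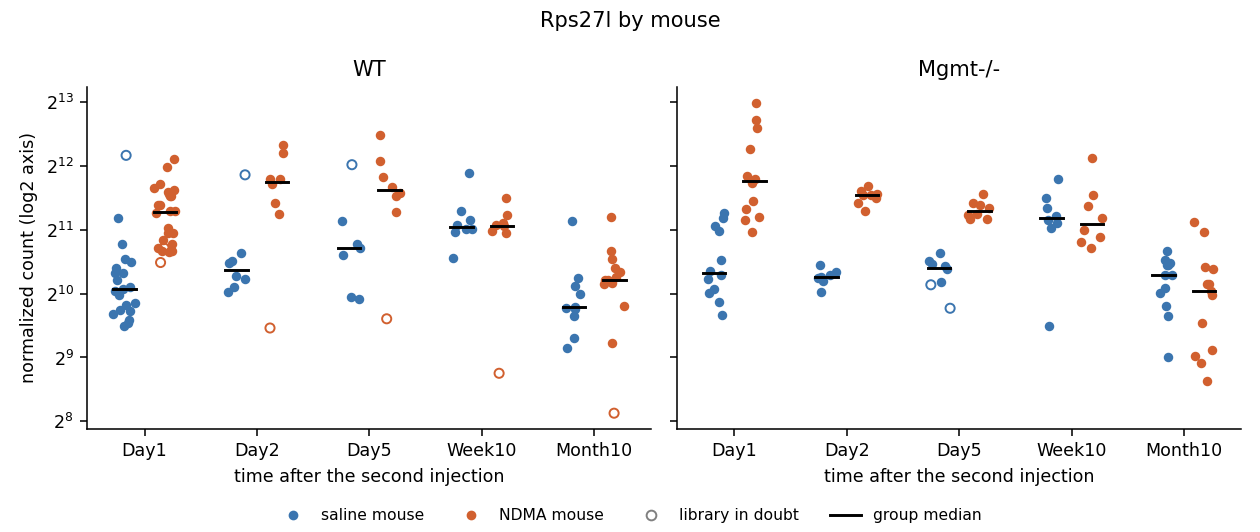
Normalized count of Rps27l in each liver (log axis) by time, treatment and genotype; open circles are the kidney-like libraries and those with fewer than 300000 reads or with Cdkn1a against the label. NDMA livers of Mgmt-/- lie above all saline livers at Day2 and Day5, and in WT the open circles hold the highest saline and lowest NDMA livers of these days.

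Across the whole set, more members rose than fell at the early times, and in Mgmt-/- at Day1 and Day2 the share that rose was above that of all genes tested with the deposited scaling and with sex and batch in the fit. In Mgmt-/- at Day1, 20 of 76 members tested rose (26.3%) and none fell (limma, adjusted p under 0.05 over all genes), beside 13.2% of all genes that rose and 11.8% that fell. The median log2 fold change was 0.28 over the members and 0.02 over all genes tested. The count was 13 of 77 by edgeR (11.1% of all genes rose), 9 of 65 within 1 library batch (11.4%), 2 of 82 within the other (2.64%) and 3 of 76 without covariates (8.62%). The share of members was thus under that of all genes in the fit without covariates, and near it within both batches. At Day2, 18 of 67 members rose (26.9%) and 1 fell, beside 15.9% and 10.5% of all genes, with medians of 0.17 and 0.03. At Day5, 7 of 66 members rose (10.6%) and 0 fell, close to the 8.13% of all genes that rose (3.82% fell), with medians of 0.13 and -0.01. Without the 2 kidney-like libraries, 12 of 66 rose at Day5, beside 14.0% of all genes. Fewer cells of a type and less RNA per cell cannot be told apart in these bulk livers.

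In WT the counts were smaller. At Day1, 6 of 72 members rose (8.33%) and 0 fell, under the 11.0% of all genes that rose (10.1% fell), with medians of 0.16 over the members and -0.03 over all genes. At Day2, 7 of 72 rose (9.72%) and 0 fell, beside 4.23% and 3.47% of all genes, with medians of 0.25 and -0.08. At Day5, 2 of 73 rose (2.74%) and 0 fell, near the background of 2.26% and 1.39%, with medians of 0.27 and -0.07. These counts moved with the libraries in doubt, and at Day1 also without covariates and in single batches, as listed in the last section. Without the libraries with Cdkn1a against the label, 19 of 70 members rose at Day1 (13.4% of all genes), 12 of 72 at Day2 (5.9% of all genes) and 6 of 72 at Day5 (4.2% of all genes). Without these and those of fewer than 300000 reads, 36 of 72 rose and 1 fell at Day2 beside 11.3% of all genes that rose, and 31 of 73 rose at Day5 beside 9.59%. Within the male batch alone 21 members rose at Day2 and 22 at Day5, beside 6.95% and 8.07% of all genes. Within the female batch 0 members and 0.0% of all genes rose at both times (limma; 9 and 6 members at an unadjusted p under 0.05). The member medians were 0.37 and 0.52 in males and 0.25 and -0.00 in females. All 4 libraries in doubt at these times were in the female batch.

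The scale moved these counts as well. With every column brought to the same total, 43 of 76 members rose in Mgmt-/- at Day1 (23.6% of all genes), 31 of 67 at Day2 (24.4%) and 1 of 66 at Day5 (6.17%), while the median of all genes moved to 0.20, 0.19 and -0.11. Leaving out the kidney-like libraries on that scale gave 23 of 66 at Day5 (20.9%). In WT the numbers on that scale were 16 of 72 at Day1 (14.1% of all genes), 13 of 72 at Day2 (5.5%) and 2 of 73 at Day5 (2.1%). Members have short transcripts (median 713 nt, against 2093 nt over the 17161 genes with a length), and short genes as a whole stood slightly higher after NDMA. With the trend on transcript length taken out of each library, 12 of 73 members rose in Mgmt-/- at Day1 (12.0% of all genes), 4 of 64 rose and 2 fell at Day2 (12.9% rose) and 3 of 63 rose at Day5 (6.91%). In WT this left 5 of 70 at Day1 (10.8% of all genes), 1 of 69 at Day2 (3.43%) and 0 of 70 at Day5 (1.83%). At 0 by limma, 15 of these 70 members had an unadjusted p under 0.05. On this last scale the share of members that rose was above that of all genes in Mgmt-/- at Day1 alone of the 6 comparisons, and the member median in Mgmt-/- at Day2 was -0.00. By length class on the deposited scale, the counts at Mgmt-/- Day2 went both ways. Of members up to 600 nt 6 of 21 rose (22.3% of other genes), of 600 to 1000 nt 10 of 31 (18.7%) and of 1000 to 1500 nt 0 of 8 (19.7%). In WT at Day2, 1 of 24 up to 600 nt rose (19.0%) and 5 of 32 of 600 to 1000 nt (8.90%).

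**Figure D4:**
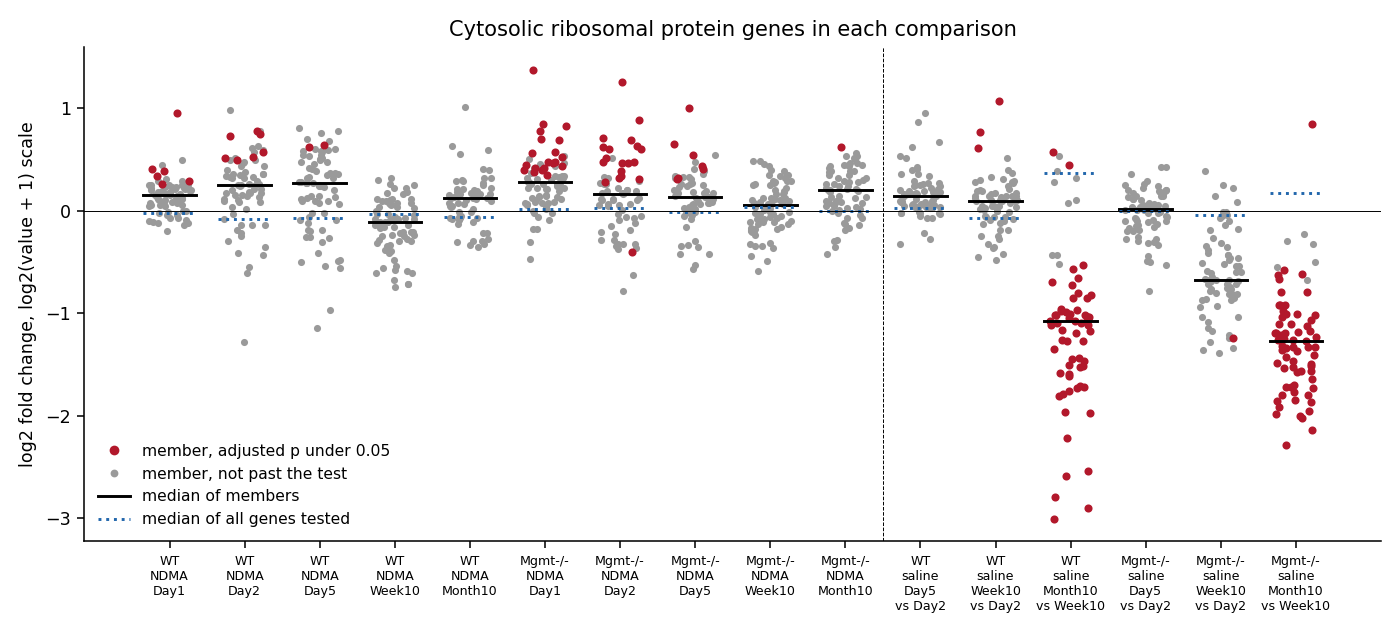
Log2 fold change of each member tested in the 16 comparisons of NDMA with saline and of saline ages; red dots have an adjusted p under 0.05 (limma), black lines are member medians and blue dotted lines medians of all genes tested. Early NDMA comparisons lie slightly above the all-gene line, and both Month10 against Week10 columns lie far below it (medians -1.08 in WT and -1.27 in Mgmt-/-).

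Among small subunit members, Rps19, a protein needed to mature 18S ribosomal RNA and mutated in Diamond-Blackfan anaemia had the largest log2 fold change after Rps27l in Mgmt-/- at Day1 and Day2 and in WT at Day1. As 90.25% of its 3′ stretch is found in 3 other genes, its level is uncertain. In Mgmt-/- at Day2 it stood at 811, 1002 and 1369 normalized counts in saline and at 1517, 1915 and 2117 after NDMA, without overlap. It rose by a log2 fold change of 0.85 at Day1 (SE 0.13, limma adjusted p = 2.73e-06) and 0.88 at Day2 (SE 0.11, adjusted p = 4.70e-07). The value at Day5 was 0.48 (SE 0.17, adjusted p = 0.0804), which did not pass, and it passed at 0.69 without the kidney-like libraries. In WT saline livers of Day2 Rps19 stood at 269, 362 and 603 and after NDMA at 476, 549 and 1336, with overlap. The WT log2 fold changes were 0.41 at Day1 (SE 0.11, limma adjusted p = 0.00472), 0.77 at Day2 (SE 0.20, adjusted p = 0.0204) and 0.78 at Day5 (SE 0.23, adjusted p = 0.0665, not passed).

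Rps20, another small subunit protein, has an annotated transcript of 3706 nt, long for a member. In Mgmt-/- at Day5 it stood at 272, 382 and 396 normalized counts in saline and 453, 548 and 649 after NDMA. No exposed liver fell among the saline livers. It rose by 0.69 at Day1 (SE 0.13, limma adjusted p = 7.50e-05), 0.71 at Day2 (SE 0.13, adjusted p = 9.26e-05) and 0.65 at Day5 (SE 0.11, adjusted p = 9.76e-04; 0.64 without the kidney-like libraries). In WT it rose by 0.29 at Day1 (adjusted p = 0.0233), and the values of 0.50 at Day2 and 0.53 at Day5 did not pass (limma adjusted p = 0.059 and 0.0909). Rps6, the substrate of the S6 kinases, rose in WT at Day1 by 0.39 (limma adjusted p = 0.0108), and Rps14 rose in Mgmt-/- at Day1 by 0.48 (adjusted p = 0.0269). These calls were lost in 3 of 14 alternatives for Rps6 and in 5 of 11 for Rps14, and the WT calls of Rps19 in 3 of 14 at Day1 and 4 of 30 at Day2. Rpsa, which binds laminin as well as the small subunit, rose in Mgmt-/- at Day1 by 0.78 (SE 0.19, limma adjusted p = 0.00199). Its call was lost in 2 of 11 alternatives.

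Of the large subunit, Rpl36al, the autosomal retrocopy of Rpl36a, stood in WT at Day2 at 185, 225 and 290 normalized counts in saline and at 323, 349 and 610 after NDMA. It was the only member of that comparison whose groups did not overlap (0.373% of all genes tested lay wholly higher after NDMA). It rose by 0.73 at Day2 (SE 0.15, limma adjusted p = 0.00537) and 0.63 at Day5 (SE 0.17, adjusted p = 0.0479). The Mgmt-/- values of 0.33, 0.17 and 0.42 at Day1, Day2 and Day5 did not pass, and the Day5 value was 0.11 without the kidney-like libraries. Rpl32 stood in WT at Day5 at 868, 1324 and 1737 in saline and 1698, 1919 and 2456 after NDMA, with slight overlap. It rose by 0.57 at Day2 (SE 0.13, limma adjusted p = 0.00696) and 0.65 at Day5 (SE 0.17, adjusted p = 0.0428), and in Mgmt-/- by 0.34 at Day2 (adjusted p = 0.015). Without the kidney-like libraries Rpl32 also passed in Mgmt-/- at Day5, at 0.40 (limma adjusted p = 0.00575). In WT at Day5 the call was lost in 15 of 29 alternatives for Rpl36al and in 17 of 29 for Rpl32. Rpl39, which lies at the exit tunnel, rose in Mgmt-/- at all 3 times, by 0.53, 0.60 and 0.55 (limma adjusted p = 0.00631, 0.00111 and 0.01; 0.59 at Day5 without the kidney-like libraries). Rpl19, Rpl13a and Rpl22, all of the large subunit, rose in Mgmt-/- at Day1 by 0.82, 0.46 and 0.41 (limma adjusted p = 0.00735, 0.0037 and 0.00603). At Day1 the call was lost in 3 of 11 alternatives for Rpl39, 1 of 10 for Rpl19, 4 of 11 for Rpl13a and 3 of 11 for Rpl22. Rpl37rt, a row annotated as a pseudogene, rose at Day2 by 0.75 in WT and 0.63 in Mgmt-/- (limma adjusted p = 0.0169 and 0.0238), and its WT call was lost in 3 of 29 alternatives.

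The stalk proteins, which recruit elongation factors, did not all pass the test, and differences between them were not tested. Rplp0 rose at Day1 by 0.26 in WT and 0.40 in Mgmt-/- and at Day2 by 0.31 in Mgmt-/- (limma adjusted p = 0.0309, 0.018 and 0.0122). Without the kidney-like libraries Rplp0 also passed in Mgmt-/- at Day5, at 0.40 (limma adjusted p = 0.00568). Rplp1 rose in Mgmt-/- by 0.35 at Day1 and 0.32 at Day5 (adjusted p = 0.0302 and 0.0328; 0.35 at Day5 without the kidney-like libraries), with the reservation that its whole 3′ stretch is present in other genes. Its calls were lost in 5 of 11 alternatives at Day1 and 10 of 27 at Day5, with values down to 0.16 at both times. Those of Rplp0 at Day1 were lost in 4 of 14 in WT, with values down to 0.02, and in 3 of 11 in Mgmt-/-. Rplp2 did not pass at any of the 6 comparisons, with values from -0.08 to 0.13. Rpl35a, a large subunit protein also linked to Diamond-Blackfan anaemia, was the 1 member that fell. In Mgmt-/- at Day2 it went from 292, 444 and 547 to 273, 317 and 368 normalized counts, with overlap, and its log2 fold change was -0.40 (SE 0.11, limma adjusted p = 0.00621).

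The Mdm2-binding pair did not pass the test early. Rpl5 had log2 fold changes of -0.07, -1.28 and -1.15 in WT at Day1, Day2 and Day5 (limma adjusted p = 0.777, 0.118 and 0.264) and of -0.00, -0.33 and -0.56 in Mgmt-/-. In WT at Day2 without both kinds of library in doubt, Rpl5 was the member that fell, by 0.78. Rpl11 had values of 0.50, 0.35 and 0.09 in WT and of -0.09, -0.37 and -0.42 in Mgmt-/-, none past the test. Rpl3 (-0.31 to 0.11), Rpl22l1 (-0.12 to 0.25) and Rps4x (-0.63 to 0.18) also did not pass in any of the 6, and neither did Rpl7l1 (0.02 to 0.28), a paralogue of Rpl7.

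Over the 6 early comparisons, each with its own controls, 28 of 78 members tested rose in at least 1, 20 in at least 2 and 9 in at least 3. Of all genes tested, 22.4%, 12.5% and 7.49% did so. Rps19, Rps20 and Rps27l rose in 4, and 0 members rose in 5 or more. The NDMA range lay wholly above the saline range for 3 of 67 members in Mgmt-/- at Day2 (Rps27l, Rps19 and Rplp0) and for 4 of 66 at Day5 (Rps27l, Rps20, Rplp1 and Rps9), beside 6.19% and 4.29% of all genes tested, so these counts were near or under the background. Without the kidney-like libraries the Day5 count was 5 of 66, with Rps19 added, beside 6.0% of all genes.

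At Week10 and Month10 few or no members passed the test after NDMA. In WT, 0 of 71 members passed at Week10, beside 0.0249% of all genes in either direction, with 0 members at an unadjusted p under 0.05, and 0 by edgeR and by DESeq2. At Month10, 0 of 62 passed beside 0.0% of all genes, with 2 at an unadjusted p under 0.05, and 0 by edgeR and by DESeq2. In Mgmt-/-, 0 of 78 members passed at Week10 although 11.5% of all genes passed in either direction, with 2 members at an unadjusted p under 0.05, and 0 by edgeR and by DESeq2. Leaving out 1 saline liver of low share (0.852%, against a group median of 1.68%) gave 9 members that fell, beside 7.06% of all genes that fell in that fit. At Month10, 1 of 67 passed beside 9.43% of all genes. This was Rpl14, a large subunit protein, at 138, 271 and 307 normalized counts in saline and 241, 326 and 764 after NDMA, with overlap, a log2 fold change of 0.62 (SE 0.17, limma adjusted p = 0.0167) and a WT value of -0.01 (adjusted p = 0.987).

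Whether NDMA moved the members differently in WT and Mgmt-/- was tested in 1 count model per time (edgeR on the reads). It passed for 0 of 73 members at Day1 (0.0635% of all genes; 4 members at an unadjusted p under 0.05), 1 of 70 at Day2 (4.37%), 0 of 69 at Day5 (0.863%; 2 members), 0 of 76 at Week10 (5.76%; 0 members) and 0 of 64 at Month10 (1.61%; 1 member). Without the kidney-like libraries 0 of 69 passed at Day5 (2.3% of all genes; 8 members at an unadjusted p under 0.05). At Day2, Day5 and Week10 no batch held both genotypes, so a difference in response between genotypes cannot be told apart there from one between batches. No other tool was run on this term. For Rps27l the term was 0.38 at Day1, 0.25 at Day2 and 0.10 at Day5 on the log2 scale, and -0.04 at Day5 without the kidney-like libraries, none past the test (edgeR adjusted p = 0.534, 0.773, 0.96 and 0.978).

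The largest change of the members lay between ages of saline mice, where most fell from Week10 to Month10 in both genotypes. In WT, 58 of 69 members fell (84.1%) and 2 rose, beside 23.8% of all genes that fell and 41.7% that rose (limma, 1 fit over the 5 saline ages). The median log2 fold change was -1.08 over the members and 0.36 over all genes. In Mgmt-/-, 66 of 73 fell (90.4%) and 1 rose, beside 20.9% and 30.6% of all genes, with medians of -1.27 and 0.17. All 58 that fell in WT also fell in Mgmt-/- (100% of the WT list and 87.9% of the Mgmt-/- list). Since 90.4% of members tested fell in Mgmt-/-, a large overlap follows from these counts and is no separate result. The large subunit held 33 fallen of 39 tested in WT (median -1.03) and 37 of 42 in Mgmt-/- (median -1.22), and the small subunit 25 of 29 (-1.17) and 29 of 30 (-1.38).

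The share of all values held by the members fell accordingly. It was 0.880%, 1.20% and 1.54% in WT saline livers at Week10 and 0.590%, 0.736% and 0.967% at Month10, and in Mgmt-/- 0.852%, 1.68% and 2.80% at Week10 and 0.683%, 0.865% and 1.06% at Month10. The edges of the groups met in both genotypes. Rps14 stood at 943, 1870 and 3442 normalized counts in WT at Week10 and at 217, 534 and 804 at Month10, without overlap, and its log2 fold changes were -1.98 in WT and -1.70 in Mgmt-/-. Rpl41, the smallest ribosomal protein, whose 3′ stretch is found to 90% in other genes, went from 202, 388 and 642 to 29.2, 75.9 and 201 in WT and from 333, 901 and 1554 to 82.0, 220 and 297 in Mgmt-/-. It did not overlap in either genotype and fell by 2.54 (limma adjusted p = 7.18e-11) and 2.28 (SE 0.25, adjusted p = 1.40e-09) on the log2 scale. Both genotypes also had no overlap for Rpl3, the protein next to the peptidyl transferase centre, and Rps6. In all, 14 of 69 members in WT and 6 of 73 in Mgmt-/- lay wholly lower at Month10, beside 4.95% and 0.854% of all genes tested.

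The lowest values were those of Rps7, Rps4x and Rps16 in WT. Rps7, an Mdm2-binding small subunit protein, went from 5.46, 17.0 and 30.4 normalized counts to 0, 2.30 and 7.63 in WT, with 4 of 10 Month10 livers at 0. Its log2 fold change was -3.00 (SE 0.39, limma adjusted p = 1.61e-09), and in Mgmt-/- -2.13 (adjusted p = 2.44e-06), where 8.16, 16.4 and 45.2 became 0, 3.93 and 7.82. Rps4x, the X-linked form of Rps4, went from 21.1, 39.0 and 58.4 to 1.25, 5.09 and 7.99 in WT, without overlap (-2.90, SE 0.24, limma adjusted p = 7.19e-16). In Mgmt-/- it also fell, from 4.17, 25.2 and 50.9 to 0, 5.99 and 9.72, with overlap. Rps16 fell by 2.79 in WT (SE 0.34, adjusted p = 3.33e-10) and by 1.35 in Mgmt-/-, and in Mgmt-/- Rps13 fell by 2.02 (adjusted p = 2.58e-04). All of these were low genes with few reads per liver at Month10. Among abundant members, Rplp0 fell by 1.76 and 1.84 in WT and Mgmt-/-, Rpl39 by 1.35 and 1.56, and Rps19 by 1.26 and 1.02. Rps27l fell by 1.06 in WT (limma adjusted p = 4.66e-05) and 0.92 in Mgmt-/- (adjusted p = 8.12e-05).

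Of the paralogue pairs, Rpl22 fell by 0.80 and 1.10 and Rpl22l1 by 1.71 and 1.86, and Rpl36a fell by 1.44 and 1.01 and Rpl36al by 1.27 and 1.48 (WT and Mgmt-/-, limma, all past the test, with the Mgmt-/- call of Rpl36a lost in 4 of 10 alternatives). The members of the other direction were few. Rpl5 went from 8.80, 17.8 and 31.0 normalized counts to 14.6, 30.5 and 47.5 in WT and from 4.92, 19.8 and 32.4 to 11.2, 32.1 and 76.0 in Mgmt-/-, with overlap, and rose by 0.58 (SE 0.23, limma adjusted p = 0.0256) and 0.84 (SE 0.28, adjusted p = 0.0111). The WT call of Rpl5 was lost in 4 of 12 alternatives, which ranged from 0.20 to 0.99. Its partner Rpl11 fell by 1.03 and 1.56 (limma adjusted p = 0.025 and 5.74e-05), and its WT call was lost in 4 of 11. Rps2 rose by 0.45 in WT and fell by 1.03 in Mgmt-/- (limma adjusted p = 0.0161 and 1.64e-04), a difference between genotypes that was not tested, and 99.5% of its 3′ stretch is found in 23 other genes. The WT call of Rps2 was lost in 5 of 12 alternatives, which ranged from 0.06 to 0.86. Rps19bp1, which is not a subunit, had values of 0.08 and -0.23, neither past the test.

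Transcript length moved with age too. Among genes other than members, the median log2 fold change from Week10 to Month10 was -0.48 in WT and -0.43 in Mgmt-/- for transcripts up to 600 nt, and 1.27 and 0.77 for those over 4000 nt. Members lay below the other genes of their own length. Up to 600 nt the member medians were -1.06 (WT) and -1.34 (Mgmt-/-), and those of 600 to 1000 nt had -1.19 and -1.40, where the other genes had -0.40 and -0.43. With the trend on length taken out, 54 of 67 members still fell in WT (29.3% of all genes) and 58 of 70 in Mgmt-/- (21.9%). With columns brought to the same total, 51 of 69 fell and 6 rose in WT (15.1% of all genes fell) and 57 of 73 fell in Mgmt-/- (10.7%), while the median of all genes moved to 0.74 and 0.53. Within each of the 2 WT batches that held both ages, 52 of 70 and 53 of 66 members fell, beside 18.2% and 16.3% of all genes. Mgmt-/- livers of both ages were all of 1 batch.

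**Figure D5:**
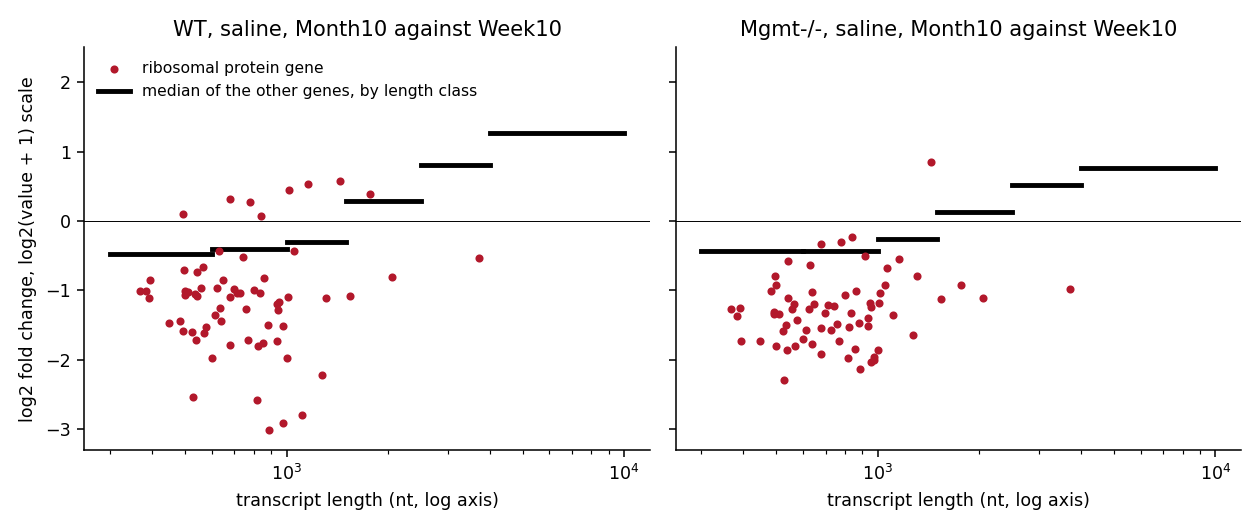
Log2 fold change from Week10 to Month10 in saline livers of each member against transcript length (log axis), WT and Mgmt-/-; black bars are medians of the other genes by length class. Members lie below the bars in most classes, for example at a median of -1.19 against -0.40 for 600 to 1000 nt in WT.

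At earlier ages few members passed the test with batch in the model. From Day2 to Day5 in saline, 0 of 69 members passed in WT (0.928% of all genes passed; 6 members at an unadjusted p under 0.05) and 0 of 73 in Mgmt-/- (0.0% of all genes; 0 members), with 0 by edgeR and by DESeq2 in both. The Mgmt-/- Day5 group held the 2 kidney-like libraries among its 8, and without them 0 of 73 members and 0.0% of all genes passed, with 1 member at an unadjusted p under 0.05. From Day2 to Week10 in WT, 3 of 69 rose, beside 22.6% of all genes past the test in either direction. These were Rpl11, Rps24 and Rps27l, by 1.07, 0.77 and 0.61. The call was lost in 9 of 11 alternatives for Rpl11, in 1 of 12 for Rps24 and in 6 of 12 for Rps27l. In Mgmt-/-, 1 of 73 passed, beside 4.03% of all genes, and this was Rpl22l1, which fell by 1.24. The Mgmt-/- livers of these ages came from different batches. Without batch in the model 36 members were higher and 4 lower, with the median moving from -0.67 to 0.79. The share of all genes in that fit is not given, so these counts do not compare members with other genes. In the batch with Mgmt-/- saline livers of both Day1 and Week10, the share of all values held by members was lower at Week10. Its median was 2.71% at Day1 (2.28% to 3.18%, n = 4) and 1.68% at Week10 (0.852% to 2.80%, n = 8), with overlap. That batch held no Day2 livers, so the direction of the step from Day2 depended on the model and is not determined.

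Lists of related genes, chosen with earlier results known, are given for comparison. Of 18 translation factors with TOP messengers, 11 fell and 3 rose from Week10 to Month10 in WT (median -0.47), and 14 of 18 fell in Mgmt-/- (median -0.77), beside 23.8% and 20.9% of all genes tested that fell in WT and Mgmt-/-. Btf3, part of the nascent chain complex, fell by 1.92 and 1.73, while Pabpc1, the poly(A) binding protein, and Eif3f rose in WT by 1.23 and 1.02. Of the ribosome assembly genes, 12 of 30 fell and 7 rose in WT and 9 of 34 fell and 10 rose in Mgmt-/-, where both shares were near those of all genes (20.9% fell and 30.6% rose). Nop10, of the H/ACA complex, fell by 1.94 and 1.78 and Polr1c, shared by RNA polymerases I and III, by 2.03 and 1.22. Mybbp1a and Mdn1 rose in WT by 1.83 and 1.64, and Polr1b and Polr1a in Mgmt-/- by 1.34 and 1.10. Of the mTORC1 and TOP control genes, 10 of 16 rose and 2 fell in WT (median 1.16) and 8 of 17 rose and 2 fell in Mgmt-/- (median 0.57). These shares stand beside 41.7% and 30.6% of all genes that rose, and the medians beside 1.27 and 0.77 of genes over 4000 nt. Larp1, which binds TOP messengers, rose by 2.35 and 2.09, and Eif4ebp1, the inhibitor of cap-dependent translation, fell by 0.56 and 0.94. Eif4ebp2 rose in WT by 2.15 and Mtor in Mgmt-/- by 1.51, while Akt1s1, an mTORC1 inhibitor, fell in WT by 1.11 and the p53 target Sesn1 in Mgmt-/- by 1.32. Of 76 mitochondrial ribosomal proteins, a list picked after its values were seen, 55 fell and 7 rose in WT (median -0.84) and 61 fell and 5 rose in Mgmt-/- (median -0.95).

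Early after NDMA some genes of these lists rose, beside 11.0%, 4.23% and 2.26% of all genes in WT at Day1, Day2 and Day5 and 13.2%, 15.9% and 8.13% in Mgmt-/-, and their difference from the members was not tested. TOP factors rose in 3 of 18, 0 and 0 cases in WT at Day1, Day2 and Day5 and in 3 of 19, 4 of 18 and 1 of 18 in Mgmt-/-, with Pabpc1 at 0.59 and Rack1, a scaffold on the small subunit, at 0.46 on Day1 in Mgmt-/-. Assembly genes rose in 4 of 31, 0 and 0 cases in WT and 7 of 33, 5 of 31 and 2 of 31 in Mgmt-/-, with Gnl3 (nucleostemin) at 0.86 and Bysl at 0.81 on Day1 in Mgmt-/-. Without the kidney-like libraries, 3 of 31 assembly genes rose and 3 fell in Mgmt-/- at Day5. Of the mTORC1 and TOP control genes 1 fell in each of the 6 comparisons, among them Deptor, an mTOR inhibitor, in WT at Day2 (-0.86) and in Mgmt-/- at Day1 (-0.71). Without the kidney-like libraries, 2 of 16 fell in Mgmt-/- at Day5.

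Markers of other cells moved in the same livers, and their part in the results above was not tested. In Mgmt-/- at Day2 all 6 T and NK cell markers tested rose (median 2.60), and their summed level went from a median of 56.6 normalized counts in saline (41.3 to 73.2) to 336 after NDMA (184 to 502). Gzma, a granzyme of cytotoxic cells, was the most abundant of them. These markers rose in 4 of 6, 6 of 6 and 6 of 6 cases in Mgmt-/- at Day1, Day2 and Day5 and in 4 of 5, 4 of 6 and 3 of 6 in WT. Hepatocyte markers fell in 5, 4 and 0 of 8 cases in Mgmt-/- and 1, 3 and 1 of 8 in WT, where Fgb (fibrinogen) rose at Day1 by 0.55, and their summed median in Mgmt-/- at Day2 went from 368211 to 246487. Without the kidney-like libraries, 3 of 8 hepatocyte markers fell in Mgmt-/- at Day5 (median of all 8 -0.41, against 1.69 with them), 7 of 10 macrophage markers rose and 1 fell, 6 of 7 red cell precursor and 5 of 5 neutrophil markers fell, 4 of 8 stellate markers fell and 1 rose, 3 of 8 endothelial markers fell and 2 rose, and the counts of T and NK and of dividing cells were as with them. Markers of dividing cells rose in 2, 5 and 3 of 8 cases in Mgmt-/- and in 1, 0 and 0 in WT, and those of red cell precursors fell in 6 of 6, 4 of 6 and 4 of 7 in Mgmt-/- and 1, 0 and 0 of 6 in WT. Macrophage markers rose in 2 of 10 (3 fell), 6 and 5 cases in Mgmt-/-, where their summed median went from 1228 to 2297 normalized counts at Day2 and from 1150 to 2306 at Day5, and in 3 (2 fell), 2 (2 fell) and 1 in WT. Stellate markers fell in 5 (1 rose), 4 (1 rose) and 2 of 8 cases in Mgmt-/- and 6 (1 rose), 2 (1 rose) and 1 in WT. Endothelial markers fell in 3 (1 rose), 2 (2 rose) and 0 (1 rose) of 8 in Mgmt-/- and 4 (1 rose), 1 and 0 in WT. Neutrophil markers fell in 3 of 6, 3 of 5 (1 rose) and 1 of 5 in Mgmt-/-, and 1 of 5 rose in WT at Day1. Of the cholangiocyte list, Spp1 (osteopontin) was the most abundant. It rose in WT at Day1 by 0.65 (limma adjusted p = 2.39e-04) and fell in Mgmt-/- at Day1 by 0.79 (adjusted p = 4.25e-04). Without the kidney-like libraries, the only marker of this list tested in Mgmt-/- at Day5 fell (-1.41). In Mgmt-/- the summed level of the list was 87.8 in saline and 827 after NDMA at Week10, and 87.0 and 366 at Month10 (medians). Spp1 alone had means of 142 and 930 at Week10 and of 71.5 and 630 at Month10. The sums thus mostly follow this 1 gene, and counts of the other markers of the list after NDMA at these times are not given. From Week10 to Month10, macrophage markers fell in 8 of 10 cases in WT and 3 of 10 in Mgmt-/-, red cell precursors in 5 of 6 and 4 of 7, dividing cells in 2 of 7 and 3 of 7, and hepatocyte markers in 4 of 8 (3 rose) and 0 of 8 (1 rose). T and NK cell markers fell in 1 of 4 and 2 of 4, and neutrophil markers in 1 of 5 and 1 of 6. Stellate markers rose in 2 of 8 and 1 of 8, and endothelial markers rose in 2 and 2 and fell in 2 and 1 of 8. B cell markers rose in 0 of 2 and 1 of 2, and cholangiocyte markers in 0 of 2 and 1 of 3.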

How the data were processed

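Per the labels and the study's methods, polyA RNA of up to 30 mg of liver was converted to 3′ digital gene expression libraries with UMI primers, aligned with STAR to GRCm38 (mm10) and counted per gene with ESAT; versions and annotation are not given in the sources used here. The deposited values are a signal: the authors scaled gene counts by the size factors of DESeq2 and gave each genotype its own table. Of 214 labelled livers 213 had values. In 209 of these all values came out as whole reads (tolerance 0.1), and the other 4 (3 WT saline Day2, 1 Mgmt-/- NDMA Day1) were left out of count models. The main test was limma 3.58.1 (trend, robust; R 4.3.3) on log2(value + 1) with sex and batch, over genes that averaged 5 or more in the samples compared, two-sided, with Benjamini-Hochberg adjustment over all genes at 0.05. The genotype term used the quasi-likelihood test of edgeR 4.0.16 with TMM. DESeq2 1.42.0, other pseudocounts (0.5, 5), filtering at 20 or not at all, dropping the covariates, the same total per column, single batches and left-out libraries were alternatives. Some were added after the data were seen: removal of each library's trend on GENCODE vM21 transcript length, single batches in WT at Day2, Day5 and Week10, and leaving out libraries by Cdkn1a. Copies were found with blastn 2.17.0. Named were known paralogue pairs, members of well-known role, the 3 most changed members in each direction per comparison, the 3 highest and Rps19bp1, and 2 genes per direction of a list. Members and lists were chosen with earlier results of these data known. Values of a few genes are not reported here. The fits were tested on simulated data, and the outcome is not given here. Labels do not say that replicates are separate extractions, but each is a separate liver.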

Additional observations from a re-analysis of the deposited data

Results flagged for a closer look

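Of 156 combinations of group and measure in groups of 4 to 10 livers, 26 (16.7%) had 1 liver far from all others by Dixon's criterion. Its nominal rate of about 1 in 20 holds for independent, normally distributed values. Many of these measures came from the same livers, so no excess over that rate can be read from this count. In 1 Mgmt-/- NDMA liver of Week10 many members were high together. Its share was 3.38% (others 1.70% to 2.16%), and its normalized counts were 4470 for Rps27l (1684 to 2975), 1537 for Rps19 (826 to 1114), 966 for Rpl22 (475 to 641), 12131 for Rps14 (2374 to 3587), 31.7 for Rps7 (6.82 to 18.2) and 1407 for Rpl41 (555 to 940). In the 2 later WT saline livers with Cdkn1a against the label, Rps27l was 3713 at Day2 (1047 to 1585) and 4144 at Day5 (969 to 2241). Rps19 in them was 603 (269 to 387) and 719 (265 to 429), and Rps20 at Day2 was 954 (338 to 591).

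The WT NDMA livers with fewer than 300000 reads had Rps19 at 1336 at Day2 (476 to 750) and 1328 at Day5 (426 to 753), and at Week10 Rps27l at 431 (1985 to 2879) and Rpl22l1 at 27.4 (182 to 234). In WT saline, Rps27l was 3808 in a Week10 liver (1513 to 2511) and 2261 in a Month10 liver (567 to 1209), which also had Rpl22l1 at 168 (15.8 to 73.0). Other WT saline livers had Rps19 at 461 at Week10 (251 to 347), Rps27 at 8.77 at Month10 (0 to 3.15) and Rpl14 at 871 at Day5 (425 to 607). Rpl14 was 1041 in a WT NDMA liver of Day5 (633 to 799) and 133 in a Mgmt-/- saline liver of Week10 (546 to 840). Rps27 was 5.25 in a Mgmt-/- NDMA liver of Day2 (0.539 to 2.30), and Rps20 was 525 in a Mgmt-/- saline liver of Day2 (275 to 375).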

How the results depend on the processing

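Over 21 counts of members past the test, 147 of 203 alternatives that did not leave out 1 library kept the count within 1.5 times, 55 moved it further and 1 turned the direction. For named members, 1038 of 1171 alternatives kept call and direction, 132 lost the call and 1 turned. Where counts moved, the cause was not tested. The counts below stand without the share of all genes, and where no share is given above they do not compare members with other genes. WT NDMA at Day1 gave 16 members with the same total per column, 2 without covariates, 19 without Cdkn1a-mismatched libraries, and 2, 0 and 15 in single batches. WT Day2 gave 13 with the same total, 1 with length removed, 4 without a filter, 13 at a mean of at least 20, 3 without covariates, 3 by edgeR, 12 without Cdkn1a-mismatched libraries, 32 without those under 300000 reads, 37 without both, 21 and 0 in single batches, and 3 to 32 leaving out 1 liver each. WT Day5 gave 0 with length removed, without a filter or without covariates, 4 with a pseudocount of 5, 5 at a mean of at least 20, 1 by edgeR, 5 by DESeq2, 6, 17 and 31 with those libraries left out, 22 and 0 in single batches, and 0 to 17 leaving out 1 liver each. Mgmt-/- Day1 gave 43 with the same total, 12 with length removed, 3 without covariates, 13 by edgeR, and 9 and 2 in single batches. Mgmt-/- Day2 gave 31 with the same total and 6 with length removed (14 to 25 leaving out 1 liver each). Mgmt-/- Day5 gave 1 with the same total, 3 with length removed, 11 by DESeq2, 12 without the kidney-like libraries, 23 without them on the same total, and 3 to 10 leaving out 1 liver each. Mgmt-/- Week10 gave 3 with the same total, 1 with length removed, and 0 to 9 leaving out 1 liver each. Mgmt-/- Month10 gave 2 with the same total and 3 by DESeq2. WT Day5 against Day2 gave 1 with the same total and 1 at a mean of at least 20. WT Week10 against Day2 gave 1 without a filter, by edgeR and by DESeq2, and 0 without covariates. Mgmt-/- Week10 against Day2 gave 40 without covariates, with the direction turned (Rpl22l1 0.19), and 3 without the kidney-like libraries on the same total. The genotype term at Day2 gave 0 without the Cdkn1a-mismatched library and 3 without the library under 300000 reads. No paired analysis was possible because the labels give each liver its own number and no number is shared between groups. Depth limits members with means near 5, where Month10 livers often hold no read.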
